A study of Zea mays with 322 samples.

Results

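The chromosome arm 4S dosage series comprised 19 maize plants of 322 libraries in the study, chosen by the TB-4Sa labels of the plants and of their controls. TB-4Sa is a B-A translocation line, in which the distal part of the short arm of chromosome 4 is joined to a B centromere, the B being a dispensable extra chromosome. Small RNA was sequenced from leaf tissue of greenhouse plants at 45 days, and the reads were counted at 64 MIRNA loci, 2 of which lie in the varied segment (cis) and 62 elsewhere (trans). The groups were diploid monosomies with 1 copy of 4S (1D, n = 4), diploid trisomies with 3 copies (3D, n = 4), the diploid controls of both with 2 copies (2D, n = 4), disomies, which are haploids with 2 copies of 4S and 1 of every other arm (h2D, n = 3), and haploid controls (h1D, n = 4). The haploid control plants also served the disomy of arm 9S, and both diploid comparisons used the same 2D plants, so the comparisons are not independent. The aneuploid plants carried parts of a B chromosome that their controls lacked, and the plants came from a single translocation line. With counts at MIRNA loci alone, the leaf label and the copy number of 4S were not checked against marker genes here.

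Varying 1 chromosome arm against an otherwise unchanged genome alters the dose of every gene on that arm. A cis effect is a change of a locus on the varied arm, and a level that follows the copy number is called a dosage effect. A trans effect is a change of a locus elsewhere, and it is called inverse when the level moves against the copy number. Plant miRNAs pair almost completely with their target mRNAs and reduce them by cleavage or by blocking translation, and many of the targets are transcription factors of leaf development.

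The sequences that the results turn on are the mature miRNAs of the 2 cis loci and of the loci that differed in the disomies. They are written 5′ to 3′ as the study's locus list gives them, with the seed, bases 2 to 8, in capitals.
MIR169o: uAGCCAAGaaugacuugccu
Cluster_146002: uCGGUCUGgcuuuucuagaua
MIR171g: uGAGCCGAgccaauaucacuuc
MIR171m: uUGAGCCGcgucaauaucucc
Cluster_42505: uUGAGCCGcgucaauaucucc
MIR171j: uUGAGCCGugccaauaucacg
MIR156b: cUGACAGAagagagugagcac
MIR396c: uCCACAGGcuuucuugaacug
Cluster_170541: aGAGGGGAuuucaguggcuga
MIR166f: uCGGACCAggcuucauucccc
MIR171m and Cluster_42505 have the same mature sequence from different hairpins, so a read of the mature miRNA alone cannot be assigned to either, and MIR171j shares their seed. MIR171g begins 1 base later in the same motif, and 18 of 20 aligned bases are identical with MIR171j, against 16 of 20 with MIR171m. MIR166g and MIR166i share the sequence of MIR166f. The study predicted target sites with psRNATarget, and 1 predicted site was chosen here for each of 4 miRNAs. They are written with the bases facing the seed in capitals.
MIR171g site in Zm00001d028526_T001: cgggugauauugguUCGGCUCa
MIR171m site in Zm00001d026158_T001: cgagauauuggcgCGGCUCAa
MIR156b site in Zm00001d014698_T001: gugcucucucucuUCUGUCAg
MIR169o site in Zm00001d033215_T001: aggcaaaucauuCUUGGCUg
The MIR171 sites lie in transcripts of GRAS transcription factors, a group that includes the meristem regulators of the HAIRY MERISTEM type, and the MIR156 site lies in an SBP transcription factor, a class that governs the change from juvenile to adult leaves. The MIR169o site lies in a CCAAT-HAP2 factor. All 7 seed bases formed Watson-Crick pairs at each of the 4 sites. Close pairing was a condition of the prediction, so it is a description of the chosen sites and not a result. Over the whole site, 18 pairs, 3 G-U pairs and 1 mismatch were found for MIR171g, and 20 pairs and 1 mismatch for MIR156b.

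The depth differed between plants, and 1 monosomic library stood apart. Plant 4Sa52 (1D) had 20129 counts at MIRNA loci, where the remaining 18 plants had 66003 to 174721, and these were 1.5% of its mapped reads, against 3.35% to 6.10% elsewhere in the series. Levels are given in RPM, reads per 1000000 mapped reads, so this share moves every RPM value of a plant alike. MIR166f and MIR166g, which keep HD-ZIP III transcription factors to the upper side of the leaf, held 91.3% to 97.3% of the counts on the loci. Between 41 and 54 of the 64 loci had a read in a plant. Each library was a separate plant, no 2 plants of the 4S groups agreed within sampling noise, and in whole leaves fewer cells of a type and less RNA per cell cannot be told apart.

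**Figure D1:**
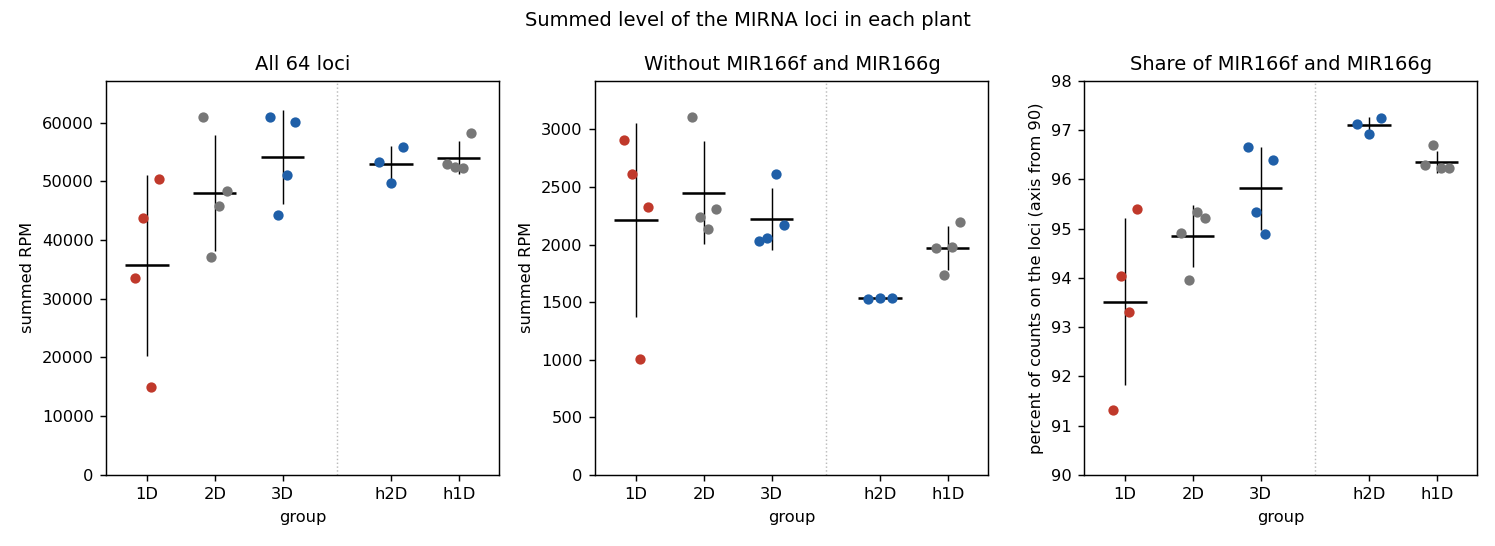
Total RPM on the 64 loci, total RPM without MIR166f and MIR166g, and the percent of counts on these loci taken by both, by group; points are plants, horizontal lines group means and vertical lines 1 SD to each side, and the axis of the third panel starts at 90. The 3 disomic plants sit at 1526 to 1536 RPM without MIR166f and MIR166g, below the haploid controls at 1736 to 2198 RPM.

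The fraction of mapped reads that fell on the 64 loci did not differ beyond the spread of the plants in any of the 3 comparisons. Total RPM averaged 35707 ± 15461 in 1D and 48084 ± 9903 in 2D (SD, n = 4 each; two-sided exact permutation p = 0.257), and 54163 ± 7969 in 3D against the same 2D plants (exact permutation p = 0.400). In h2D plants it averaged 53002 ± 3092 and in h1D plants 54040 ± 2814 (SD, n = 3 and 4; exact permutation p = 0.800). With MIR166f and MIR166g left out, the disomic plants had 1526, 1534 and 1536 RPM, against 1967, 1736, 1974 and 2198 RPM in the haploid controls. The 2 groups did not overlap, and the ratio of the means was 0.778. The exact permutation p of 0.0571 is the smallest that 3 against 4 plants can give, and adjusted over the 3 comparisons it was 0.171. MIR396c alone made up 211 of the 437 RPM by which the disomic mean was lower, and MIR171g, MIR166i, MIR166k and MIR396f each made up 48 to 52.3 RPM.

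Both cis loci were close to the limit of detection. MIR169o, a member of the family that targets NF-Y subunits of drought and nutrient responses, lies on chromosome 4 from 12619483 to 12619733 in the W22 genome. It had 6 reads in the 19 plants, and its counts were 1, 1, 0 and 0 in the 1D plants, 0, 0, 0 and 2 in the 3D plants, 0, 1, 0 and 0 in the 2D plants, 0 in each h2D plant, and 0, 1, 0 and 0 in the h1D plants. No group reached the limit of 0.5 mean RPM set for a test, and the counts could not show a change of the size of the dosage. Pooled over plants, the h2D reads of 0 allow a rate of up to 0.460 RPM (3 counts), against 0.0943 RPM in h1D. In the 303 libraries of the other groups 70 had a MIR169o read, 12 groups had a mean above 0.5 RPM, and the highest value was 73.6 RPM in a single monosomy of arm 1L.

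Cluster_146002, the other cis locus, has no miRNA name and lies on chromosome 4 from 37696917 to 37697081. Its counts were 0, 0, 0 and 0 in the 1D plants, 4, 0, 2 and 1 in the 3D plants, and 1, 0, 0 and 2 in the 2D plants. The summed counts were thus 0, 3 and 7 with 1, 2 and 3 copies of 4S, but the plants of neighbouring doses overlapped and no p was below 0.05. The pooled ratio of 3D to 2D was 2.55, with a 95% counting interval of 0.582 to 15.3 that holds both 1.5, the ratio in proportion to the copies, and no change. The 1D reads of 0 allow a rate of up to 0.449 RPM (3 counts), above the 0.290 RPM of 2D, so a loss was not detectable at this depth. These intervals cover counting error only.

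In the haploid background the difference at Cluster_146002 lay just short of the threshold. Its level was 1.03, 2.50 and 0.459 RPM in the h2D plants (2, 6 and 1 counts), against 0.373, 0.391, 0 and 0 RPM in the h1D plants (1, 1, 0 and 0 counts). The groups did not overlap, on 9 reads against 2. The pooled ratio was 7.32, with a 95% counting interval of 1.52 to 69.6 that holds 2, the ratio in proportion to the copies, but not 1, and that leaves out the spread between plants. The log2 fold change by edgeR was 2.77 (SE 0.88, 95% interval 0.88 to 4.66) with an FDR of 0.0549. This interval includes the log2 value of 1 that 2 copies in proportion would give. The locus reached the limit of 0.5 mean RPM only through the h2D plants, at a mean of 1.33 RPM against 0.191 RPM in h1D. Its entry to the test thus depended on the group where it was high, and the test is no separate support for a change. The exact permutation p was 0.0571, the smallest possible. Without plant 4Sah5, which held 6 of the 9 h2D reads, the locus fell below the limit and was not tested. Under the other settings that kept it, the FDR ran between 0.0279 and 0.151. It was below 0.05 with TMM factors computed without MIR166f and MIR166g (0.0472), without a limit on the level (0.0499) and without plant 4Sah3 (0.0279).

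**Figure D2:**
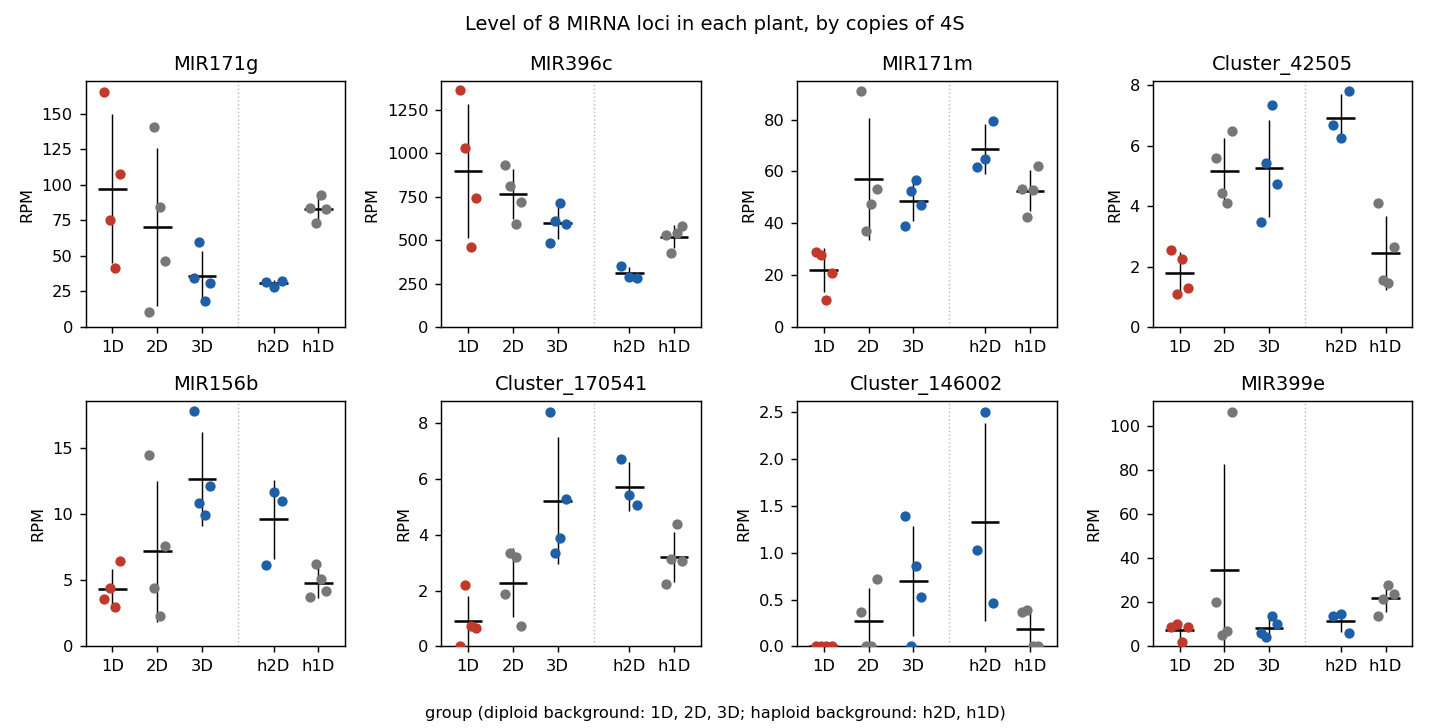
RPM of 8 loci by group, 1 point for each plant, with horizontal lines at the group means and vertical lines of 1 SD to each side, drawn no lower than 0; each panel has its own axis from 0. MIR171g is at 28.4 to 32.1 RPM in h2D and at 73.2 to 92.8 RPM in h1D, and MIR171m is below every 2D plant in each of the 4 1D plants.

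The monosomy, compared with its diploid control, gave no locus that passed the test. By edgeR's quasi-likelihood test, 0 of 47 loci tested had an FDR below 0.05 (0%), 8 had an unadjusted p below 0.05 (17%), and DESeq2 also called 0. The 5 loci of smallest p were MIR396c, MIR399e, MIR396b, Cluster_15779 and MIR171m, all at an FDR of 0.255. Against all 20 diploid control plants of the same experiment, of which 4 are the 2D plants, 6 loci were called, among them MIR396c, MIR396b, Cluster_15779 and MIR171m. That fit treated the control groups as a single group, so its calls also hold differences between them.

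MIR171m, on chromosome 5 from 20803808 to 20804107, was the one of these whose groups did not overlap in RPM. Its level was 28.9, 28, 10.4 and 20.6 RPM in the 1D plants, against 90.8, 37, 47.4 and 53 RPM in the 2D plants. Each monosomic plant was below each control, as was found for 4 of the 47 loci (8.51%), all of them lower in 1D: MIR171m, its sequence twin Cluster_42505, MIR171j and MIR390b. The lower totals of the monosomic libraries move these RPM values, and on the TMM scale, which takes them out, the log2 fold changes were -0.03 (SE 0.33) for MIR390b, -0.11 (SE 0.57) for MIR171j and -1.01 (SE 0.63) for Cluster_42505. Summed over MIR171m and Cluster_42505, the level averaged 23.8 ± 8.44 RPM in 1D and 62.2 ± 24 RPM in 2D (SD, n = 4 each; exact permutation p = 0.0286, the smallest possible, and 0.0857 adjusted over 3 comparisons). Each locus alone already separated the groups in RPM, so the p of the sum was fixed in advance and is no separate support. On the TMM scale MIR171m had a log2 fold change of -0.86 (SE 0.37), and -0.89 without plant 4Sa52.

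The MIR396 miRNAs, which restrict the growth-regulating factors that drive leaf cell proliferation, had members of smallest p in the opposite direction. MIR396c (chromosome 2 from 1896662 to 1896937) had 1360.3, 1027, 459 and 740 RPM in the 1D plants, against 929, 813, 591 and 716 RPM in the 2D plants. The groups overlapped, and plant 4Sa52 had the lowest value. The log2 fold change was 0.78 (SE 0.28) on the TMM scale, while the ratio of mean RPM was 1.18. MIR396b had 9.64, 5.48, 2.24 and 3.22 RPM in 1D, against 1.49, 2.96, 3.19 and 2.53 RPM in 2D, and its log2 value was 1.5 (SE 0.59). MIR396f, which differs from MIR396b in 1 of 21 bases, had a log2 fold change of -0.56 (SE 0.34).

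MIR399e and Cluster_15779 complete the 5. MIR399e, of the family that represses a ubiquitin-conjugating enzyme of phosphate uptake, had 8.63, 10.4, 2.24 and 9.03 RPM in 1D, against 20.1, 5.18, 6.83 and 106.4 RPM in 2D. Its log2 fold change of -1.91 (SE 0.73) rested on the single control plant 4Sa6, and without that plant it was 0.04. Cluster_15779, without a miRNA name, had 186, 274, 79.1 and 203 RPM in 1D, against 207, 144, 131 and 140 RPM in 2D, with overlapping groups and a log2 fold change of 0.69 (SE 0.28).

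The trisomy likewise gave no locus that passed the test against the same 2D plants. By edgeR 0 of 45 loci were called (0%), 4 had an unadjusted p below 0.05 (8.89%), and DESeq2 called 0. Of the loci of smallest p, Cluster_273394 had 3.49, 1.67, 2.59 and 3.69 RPM in 3D, against 1.86, 1.11, 0.911 and 0.722 RPM in 2D, and a log2 fold change of 1.22 (SE 0.43, FDR 0.371 by edgeR). Cluster_219450 had 4.89, 5.42, 5.62 and 1.58 RPM in 3D, against 9.68, 8.52, 8.66 and 11.9 RPM in 2D, and a log2 fold change of -1.16 (SE 0.42). It was 1 of 2 loci of 45 (4.44%) whose groups did not overlap, the other being Cluster_170541. MIR399e was again at a negative value, -2.20 (SE 0.87), through the same control plant, and without 4Sa6 the value was -0.26.

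MIR394b, of a family that in Arabidopsis represses an F-box protein of leaf and stem cell patterning, had 0, 0.417, 1.73 and 1.05 RPM in 3D, against 3.35, 2.96, 1.82 and 0.722 RPM in 2D, with a log2 fold change of -1.51 (SE 0.73, FDR 0.546 by edgeR). The groups overlapped. Against all 20 diploid controls of the experiment 5 loci were called in 3D, with MIR171g lower and MIR156b higher. The log2 fold change of MIR156b was 1.51 against all 20 and 0.80 against the 2D plants, and that of MIR171g was -1.65 and -1.03. At MIR156b the 2D plants lay 0.74, 0.88, 1.21 and 1.06 above the controls of 7L, 8L, 9L and 9S (log2, no FDR below 0.05 by edgeR). The pooled values thus also hold differences between control groups. In the 2D plants alone MIR171g spread widely, at 10.8, 141, 84.8 and 46.5 RPM, against 34.6, 60.1, 18.2 and 31.1 RPM in 3D.

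**Figure D3:**
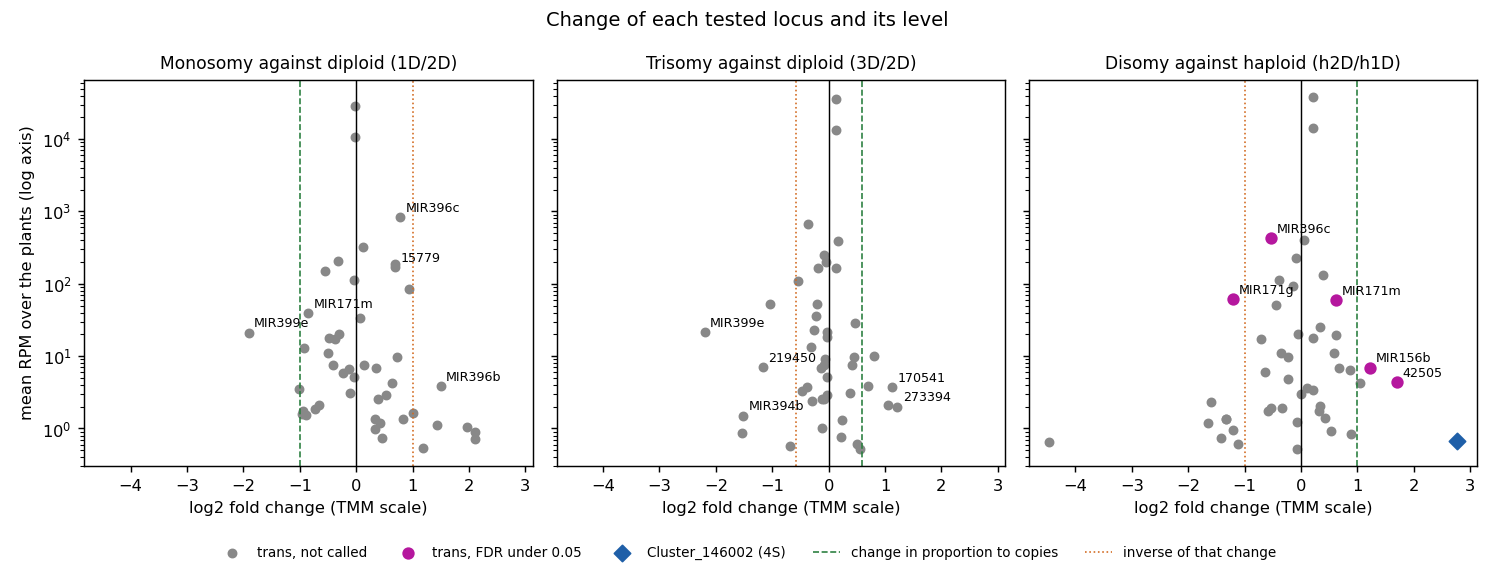
Mean RPM of each tested locus (log axis) against its log2 fold change on the TMM scale, for the monosomy, the trisomy and the disomy; purple points are trans loci with an FDR below 0.05, grey points the other trans loci, the blue diamond is Cluster_146002, and the dashed and dotted lines mark a change in proportion to the copies and its inverse. No point is purple in the first 2 panels, and 5 are in the disomy, of which 3 lie above 0.

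The widest difference of dose in diploids, 3 copies against 1, gave 1 called locus. In a fit of all 12 diploid plants, 1 of 47 loci had an FDR below 0.05 (2.13%) and 10 had an unadjusted p below 0.05 (21.3%). MIR396c fell by 1.15 on the log2 scale in 3D relative to 1D (SE 0.28, FDR 0.0366 by edgeR), with 483, 607, 712 and 592 RPM in 3D. The RPM values of the groups overlapped, because 4Sa52 lay below all 3D plants at 459 RPM. The call was lost without 4Sa50, 4Sa52, 4Sa25 or 4Sa7, where 0 loci passed, and scaled to total mapped reads the value was -0.58 (FDR 0.350 by edgeR). It was also lost in the bias-adjusted form of edgeR (FDR 0.0592), in an FDR range of 0.000189 to 0.350 over all settings with every plant. Leaving out 4Sa51 gave 4 calls, and leaving out 4Sa34 or 4Sa42 gave 2. The next loci were Cluster_170541 at a log2 fold change of 2.09 and MIR171g at -1.96 (both FDR 0.0915 by edgeR).

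The disomy gave calls in both directions. By edgeR 5 of 48 loci had an FDR below 0.05 (10.4%), 3 higher (6.25%) and 2 lower (4.17%) in h2D than in h1D, and 15 had an unadjusted p below 0.05 (31.2%). The higher loci were the twins MIR171m and Cluster_42505, which share a mature sequence, and the locus MIR156b. The lower ones were MIR171g and MIR396c. In 11 of the 48 loci (22.9%) the RPM values of the groups did not overlap, 3 of them higher and 8 lower in h2D. DESeq2 called 3 loci. The number called was 10 without 4Sah3, 2 without 4Sah5, 1 without 4Sah8, and 2 without Hh17 or without Hh20.

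MIR171g, on chromosome 7 from 43696495 to 43696690, fell, with the smallest p of the 48 loci. It had 31.9, 28.4 and 32.1 RPM in the h2D plants, against 83.5, 73.2, 92.8 and 82.9 RPM in the h1D plants. The groups were far apart, and the ratio of the means was 0.371. The log2 fold change was -1.20 (SE 0.18, 95% interval -1.60 to -0.81, FDR 0.000581 by edgeR), and the call held under every alternative run, with log2 values of -1.43 to -1.08. In a second group of haploid controls, those of arms 1L, 5L and 8L, the level was 92.6 ± 12.2 RPM (SD, n = 4). In the diploid plants MIR171g had 165, 75.1, 41.8 and 108 RPM in 1D.

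MIR171m and Cluster_42505 moved in the other direction. Cluster_42505, on chromosome 1 from 251995167 to 251995382, had 6.70, 6.25 and 7.81 RPM in h2D, against 4.10, 1.57, 1.46 and 2.66 RPM in h1D. The groups did not overlap, and the log2 fold change was 1.71 (SE 0.38, FDR 0.0113 by edgeR). The call was lost without 4Sah8 (FDR 0.0719, over a range of 0.000496 to 0.0719).

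MIR171m had 61.8, 64.6 and 79.4 RPM in h2D, against 53.3, 42.3, 53 and 62 RPM in h1D. The lowest h2D value was just under the highest h1D value. Its log2 fold change was 0.62 (SE 0.19, FDR 0.0496 by edgeR), and the call was lost in 6 of 7 fits that left out a plant and in 4 of 7 other settings, DESeq2 among them, over an FDR range of 0.000440 to 0.248. Summed, the twins averaged 75.6 ± 10.2 RPM in h2D and 55.1 ± 8.64 RPM in h1D (SD, n = 3 and 4; exact permutation p = 0.0571, the smallest possible). Both had been called in these plants, so the p of the sum is no separate support.

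MIR156b, on chromosome 3 from 7747865 to 7748022, had 6.18, 11.7 and 11 RPM in h2D, against 3.73, 6.26, 5.11 and 4.18 RPM in h1D. A single h1D value lay above the lowest h2D value. For MIR156b the log2 fold change was 1.23 (SE 0.33, FDR 0.0267 by edgeR), and 4 of 7 fits that left out a plant lost the call (FDR 0.000440 to 0.113), as did 1 of 7 other settings (FDR 0.0615). MIR156j shares its seed and had a log2 fold change of -0.23 (SE 0.33).

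MIR396c had 351, 290 and 284 RPM in h2D, against 530, 425, 541 and 582 RPM in h1D. The groups did not overlap, and the ratio of the means was 0.593. The log2 fold change was -0.52 (SE 0.14, FDR 0.0267 by edgeR), and 5 of 7 fits that left out a plant lost the call (FDR 0.000440 to 0.166 over these fits), as did 3 of 7 other settings, DESeq2 among them (FDR up to 0.110). MIR396f was at 10.3 RPM in 4Sah3, against 138 and 107 RPM in the other 2 h2D plants and 117 to 149 RPM in the 4 h1D plants, so 4Sah3 stood apart at this locus.

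Short of the threshold, MIR171j had 1.03, 1.25 and 0.459 RPM in h2D, against 2.61, 1.57, 1.83 and 7.60 RPM in h1D (log2 fold change -1.60, SE 0.68, FDR 0.116 by edgeR). The groups did not overlap. Cluster_15779 had 26.8, 40 and 45.5 RPM in h2D, against 49.6, 64.6, 70.1 and 55.1 RPM in h1D (log2 fold change -0.44, SE 0.23). Cluster_339274, named after its values were seen, had no read in the 3 h2D plants, against 0.373 to 2.35 RPM in the 4 h1D plants (FDR 0.0586 by edgeR). It reached the limit of 0.5 mean RPM only through the h1D plants, so the test is no separate support for a change. Against the same h1D plants its log2 fold change was -4.46 in the 4S and -4.46 in the 9S disomy (9S FDR 0.0554 by edgeR). The difference was thus not particular to 4S.

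**Figure D4:**
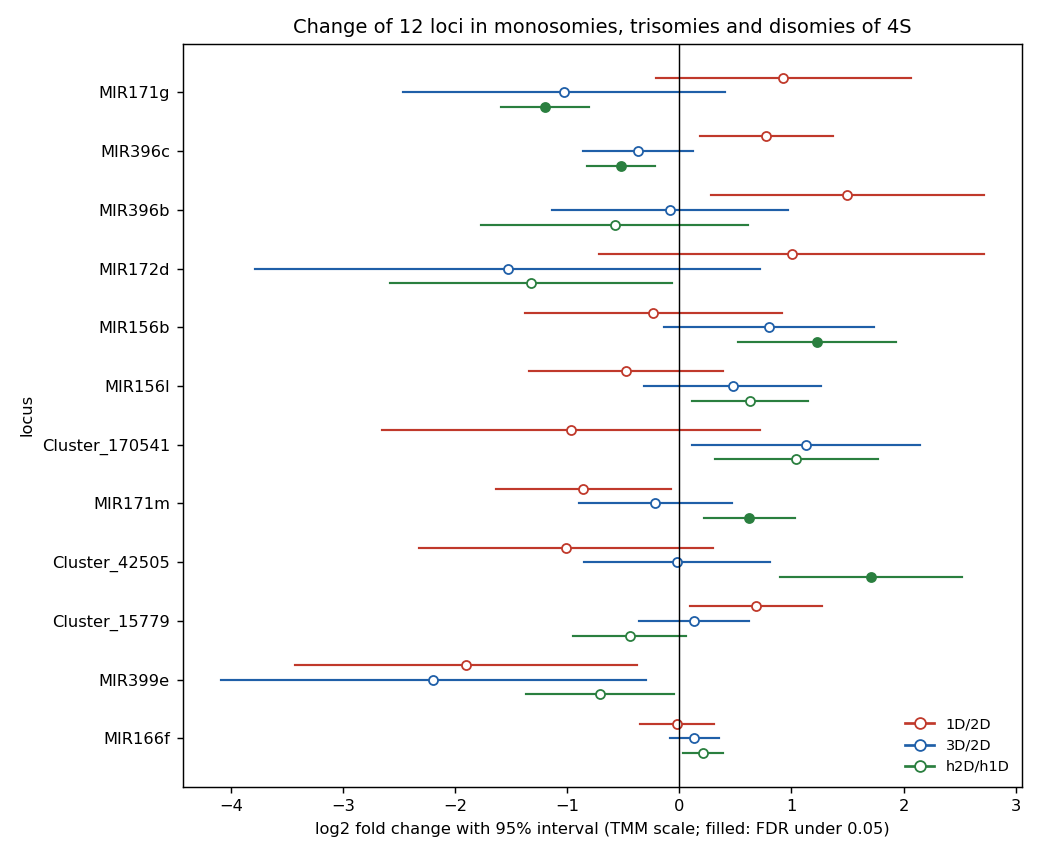
Log2 fold change on the TMM scale with its 95% interval for 12 of the named loci in the monosomy (1D/2D), the trisomy (3D/2D) and the disomy (h2D/h1D); filled markers have an FDR below 0.05 by edgeR. MIR171g is at -1.20 in the disomy with an interval of -1.60 to -0.81, and its intervals in the monosomy and the trisomy include 0.

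Set side by side over 1, 2 and 3 copies in diploids, some mean levels lay in the order of the copies. Of 47 loci, mean RPM was lower with each added copy in 8, including MIR171g, MIR396c and MIR172d, and higher with each in 13, including MIR156b, MIR166f and Cluster_170541. The balance turned with the scaling: on the TMM scale 11 loci had log2 fold changes that ran against the copies (above 0 in 1D/2D and below 0 in 3D/2D) and 6 had ones that ran with them. The 6 loci named here kept their order, but they are examples chosen from longer lists. Of the 13, MIR393b, Cluster_158979, Cluster_203651, MIR166i, Cluster_42505 and Cluster_99282 lost theirs, and Cluster_308182 turned against the copies. These orders are a description, since the 2D plants entered both diploid ratios. MIR171m did not follow such an order: its mean was 22 RPM with 1 copy, 57.1 RPM with 2 and 48.7 RPM with 3. The effect of an added copy was compared between diploids and haploids in a single fit, and 0 of 47 loci differed at an FDR below 0.05 by edgeR (0%), 4 at an unadjusted p below 0.05 (8.51%), and 0 by DESeq2. The added copy raises the dose 1.5-fold in diploids and 2-fold in haploids, so the absence of calls does not show equal responses.

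The median trans ratio of mean RPM was 0.755 over 47 loci in 1D/2D, 0.987 over 45 in 3D/2D and 0.832 over 46 in h2D/h1D. From TMM-scaled means the medians were 1.05, 0.951 and 0.967, and without 4Sa52 the first was 0.965 in RPM. The direction of the bulk of the loci in 1D/2D therefore changed with the scaling: 24 of 47 log2 fold changes were above 0 with TMM, and 19 when scaled to total mapped reads, where the median was -0.37 in place of 0.06. In h2D/h1D it was 23 of 48 by TMM and 17 by total mapped reads, with medians of -0.06 and -0.27, and in 3D/2D 17 and 20 of 45.

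MIR166f and MIR166g, the most abundant loci, were not called in any comparison of 1D, 3D or h2D with its control. MIR166f averaged 24455 ± 10823 RPM in 1D and 37922 ± 5789 RPM in 3D, against 33281 ± 6858 RPM in 2D (SD, n = 4 each), and the log2 fold changes were -0.02 and 0.13 on the TMM scale. In the disomy it averaged 37521 ± 2271 RPM in h2D and 37977 ± 1931 RPM in h1D (SD, n = 3 and 4). On that scale it was 0.21 for MIR166f and for MIR166g (FDR 0.0998 and 0.116 by edgeR), while the RPM ratios were 0.988 and 0.990, so the sign depended on the scaling.

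The other 5 loci of chromosome 4, outside the varied segment, were not called in the comparisons of 1D, 3D and h2D with their controls. Cluster_170541, from 208091658 to 208091941, came nearest. It had 0, 2.19, 0.746 and 0.645 RPM in 1D and 8.38, 3.34, 3.89 and 5.27 RPM in 3D, against 1.86, 3.33, 3.19 and 0.722 RPM in 2D. In the disomy it had 6.70, 5.42 and 5.05 RPM in h2D, against 2.24, 3.13, 4.38 and 3.04 RPM in h1D. The groups did not overlap for 3D against 2D and for h2D against h1D, with log2 fold changes of 1.13 (SE 0.47, FDR 0.371 by edgeR) and 1.04 (SE 0.34, FDR 0.0549 by edgeR), and for 1D against 2D the value was -0.97 (SE 0.81). MIR166k had log2 fold changes of -0.32 in 1D, -0.07 in 3D and -0.09 in h2D, and those of Cluster_158979 were 0.39, 0.38 and 0.11. MIR394b was at -0.90 in 1D and -1.21 in h2D, and MIR399b had no read in any of the 19 plants.

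By family, the MIR171 loci held 2 of the 5 calls by name, with 5 of 7 members tested in the disomy, 1 called higher and 1 lower. Their log2 fold changes ran between -1.60 and 0.62, around a median of -0.35, beside a median of -0.06 over all 48 loci. Of the MIR156 family, whose SBP targets set the pace of vegetative development, all 4 members were tested and 1 was called higher (median 0.42). Of the MIR396 family all 3 members were tested, 1 was called lower, and all had values below 0 (median -0.52) on the TMM scale. The MIR166 family, with 5 of 5 members tested, and the MIR167 family of auxin response factor regulators, with 3 of 3, had no call, and neither had MIR319 (2 of 2), which targets the TCP factors of leaf shape, MIR394 (2 of 2) and MIR399 (1 of 2). Of the single members MIR160g, MIR164e, MIR172d, MIR390b and MIR393b, all tested, none was called, and the values in the disomy ran between -1.32 for MIR172d, which targets AP2-like factors, and 0.87 for MIR160g. Loci with a miRNA name had 4 of 30 called, loci without one 1 of 18, and loci that share a mature sequence 2 of 15. Beside the 5 of 48 called over all loci (10.4%), these counts say nothing particular about a family or class.

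Arm 9S offers the closest comparison, with the same experiment for the diploids and the same haploid controls. For the monosomies, 2 of 46 loci had effects that differed between 4S and 9S (4.35%; edgeR, FDR below 0.05 for the difference), and 10 had an unadjusted p below 0.05 (21.7%). Cluster_15779 had a log2 fold change of 0.69 in the 4S and -0.63 in the 9S monosomy, a difference of 1.27 (SE 0.26, FDR 0.00121 by edgeR). MIR171m had -0.86 in the 4S and 0.68 in the 9S monosomy, a difference of -1.64 (SE 0.34, FDR 0.00121 by edgeR). At MIR171m the diploid controls stood at 57.1 ± 23.5 RPM for 4S and 29.3 ± 6.22 RPM for 9S (SD, n = 4 each), a log2 fold change of 0.62 (SE 0.28, FDR 0.227 by edgeR). The number called was 4 without 4Sa53 or 4Sa55 and 8 without 4Sa43. For the trisomies 0 of 47 loci differed by edgeR (0%), with 1 at an unadjusted p below 0.05 (2.13%).

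For the disomies, where the shared control cancels, 9 of 44 loci differed between the 4S and the 9S plants (20.5%), 8 of them higher (18.2%) and 1 lower (2.27%) in 4S, and 14 had an unadjusted p below 0.05 (31.8%). MIR171m was 0.84 higher on the log2 scale (SE 0.17, FDR 0.00227 by edgeR), at 68.6 ± 9.47 RPM in 4S and 41.5 ± 10.1 RPM in 9S disomies (SD, n = 3 and 4), and Cluster_42505 was 1.57 higher (SE 0.39). MIR167h was 0.75 higher (SE 0.15), Cluster_15779 0.74 higher (SE 0.23) and MIR156b 1.04 higher (SE 0.33). The study called MIR167h where a B chromosome alone varied, and left it out of its later analysis. MIR399e was the locus that was lower, with -1.41 (SE 0.36). Without 4Sah8 the number called was 3.

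MIR171g and MIR396c were not among the loci that differed between the disomies. MIR171g was at 30.8 ± 2.13 RPM in the 4S and 27.9 ± 10.7 RPM in the 9S disomies (SD, n = 3 and 4), both below the shared control at 83.1 ± 8.01 RPM. Its log2 fold change was -1.20 for 4S and -1.42 for 9S, and the difference was 0.25 (SE 0.25, 95% interval -0.26 to 0.77, FDR 0.542 by edgeR). MIR396c had -0.52 for 4S and -0.22 for 9S, with a difference of -0.25 (SE 0.13, 95% interval -0.52 to 0.01, FDR 0.155 by edgeR).

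**Figure D5:**
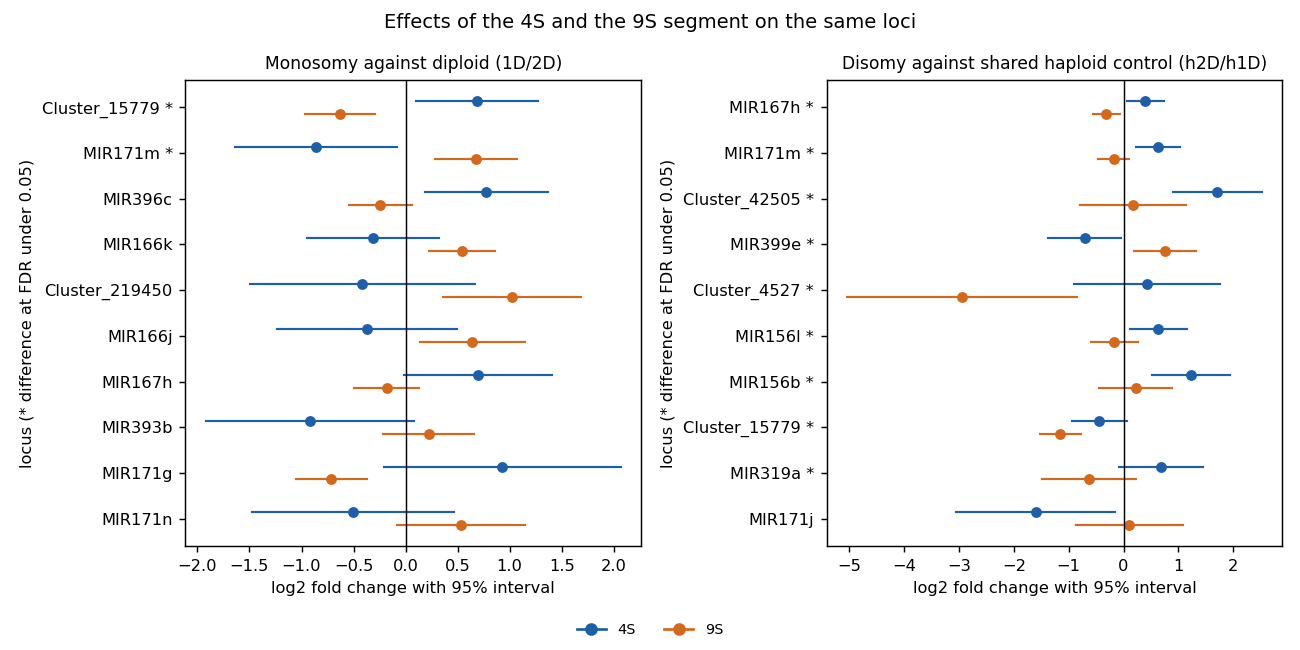
Log2 fold change with its 95% interval for arm 4S (blue) and arm 9S (orange) at the 10 loci of smallest p for the difference between the arms, in the monosomies and the disomies; asterisks mark loci whose difference has an FDR below 0.05 by edgeR. MIR171m lies at -0.86 for 4S and 0.68 for 9S in the monosomy panel, and 9 loci carry an asterisk in the disomy panel.

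Control groups set against each other gave calls without a varied arm. The 4S diploid controls had 1 of 46 loci called against those of 7L (2.17%), 1 of 45 against those of 8L (2.22%) and 0 of 45 against those of 9L and of 9S by edgeR (0%), with 4 (8.70%), 5 (11.1%), 3 (6.67%) and 8 (17.8%) loci at an unadjusted p below 0.05 in the 4 comparisons. The haploid controls of 4S had 4 of 45 loci called against those of 1L, 5L and 8L (8.89%), MIR396f, MIR399e, MIR390b and MIR166k, all higher in the 4S controls and none of them called in the disomy. MIR171g had a log2 fold change of -0.19 (SE 0.15) between these controls, MIR396c of -0.03 (SE 0.11) and MIR171m of -0.08 (SE 0.16). Where a B chromosome alone varied (1B against 0B), 1 of 43 loci was called (2.33%), MIR167c, at a log2 fold change of 1.36 (SE 0.38, FDR 0.0187 by edgeR). MIR167c in the 4S plants was at 0.06 (SE 0.38) in 1D/2D, -0.23 (SE 0.36) in 3D/2D and 0.33 (SE 0.24) in h2D/h1D. The study called MIR167h too for 1B against 0B, and excluded both loci because effects of A and B segments were difficult to separate. Here MIR167h was at -0.52 (SE 0.32, FDR 0.835 by edgeR) for 1B against 0B. In the 1B against 0B comparison MIR171g had -0.44 (SE 0.43), MIR396c -0.37 (SE 0.23) and MIR171m 0.22 (SE 0.38), and whether B chromatin had a part in the disomy values was not tested.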

How the data were processed

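Small RNA was sequenced from leaves of 19 plants of the 4S series. The authors trimmed the reads with cutadapt (version 1.16), removed structural RNA with Bowtie2, mapped the rest to the W22 genome with ShortStack and deposited raw counts for each MIRNA locus and RPM values, the reads per 1000000 mapped reads. Within a library the deposited counts and RPM values stood in a fixed ratio, from which mapped reads were computed. The RPM values were used as levels, without a pseudocount.

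The counts were tested with the quasi-likelihood test of edgeR (version 4.0.16, R 4.3.3, classic form), with library sizes from the counts on the 64 loci, TMM factors and Benjamini-Hochberg adjustment over all loci with a mean of at least 0.5 RPM in the plants compared. Calls had an FDR below 0.05. Each comparison used its own groups, and differences between effects were contrasts in a single fit. Single values were compared by two-sided exact permutation tests (scipy 1.17.1), which cannot go below 0.0286 for 4 against 4 plants and 0.0571 for 3 against 4. The fits were also run on simulated counts, drawn with the spread of these same plants and with changes larger than those of the dosage. That run does not show that changes of the size of the dosage can be found. A pair of 9S trisomic plants and a pair of plants of the B chromosome comparison agreed within sampling noise, and each pair was counted as 1 sample. The labels list them as separate plants, so the joining left these groups with fewer samples than plants. Poisson intervals are 95% and cover counting error only.

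The loci named are both cis loci, MIR166f and MIR166g, every locus called in 1D/2D, 3D/2D or h2D/h1D, the 5 of smallest p where fewer than 5 were called, the other loci of chromosome 4, and MIR167c and MIR167h. The members, lists and rules were chosen with earlier results of these data known. Alternatives were other library scalings, DESeq2 (version 1.42.0), other limits on the level, pooled diploid controls and leaving out each plant. The bias-adjusted form of edgeR was added after the data were seen.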

Additional observations from a re-analysis of the deposited data

Results flagged for a closer look

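In 4 of 81 sets of values tested, each a quantity in 1 group, 1 plant lay far from the others by Dixon's criterion. The flags fell in the 2D and h1D groups alone. MIR166f, MIR166g and the total, which these loci mostly make up, all flagged the same h1D plant. The flags are therefore not independent, and their number cannot be set against a chance rate. MIR399e was at 106.4 RPM in the 2D plant 4Sa6, against 5.18 to 20.1 RPM in the other 3 controls. The h1D plant Hh20 had 40853 RPM of MIR166f, against 36750 to 37305 RPM in the other 3, 15187 RPM of MIR166g, against 13645 to 13775 RPM, and 58238 RPM in total, against 52369 to 53039 RPM.

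The effects of 4S and 9S differed by a test of the difference itself at 2 loci in the monosomies, Cluster_15779 (log2 difference 1.27) and MIR171m (-1.64), and at 9 loci in the disomies. Those of the disomies were MIR167h (0.75, FDR 0.00227 by edgeR), MIR171m (0.84), Cluster_42505 (1.57), MIR399e (-1.41), MIR156b (1.04) and Cluster_15779 (0.74), and, named after their values were seen, Cluster_4527 (3.38, SE 0.95), MIR156l (0.83, SE 0.24) and MIR319a (1.35, SE 0.44).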

How the results depend on the processing

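In the monosomy the median trans ratio was 1.05 from TMM-scaled means, against 0.755 in RPM and 0.678 to 0.965 without single plants. In the disomy it was 0.967 from TMM-scaled means, and in the trisomy 0.921 to 1.06 without single plants. The difference of total RPM was -229 in the trisomy without MIR166f and MIR166g, against 6079 with both. In the disomy it ran between -2514 and 569 without single plants, against -1038 with all, and was above 0 without 4Sah5 (569) or Hh20 (361). The MIR169o difference in the trisomy was -0.0926 RPM without 4Sa7, in a range up to 0.264, and MIR399e in the monosomy had log2 values of -2.27 to 0.037, the last without 4Sa6. The fold change of Cluster_146002 in the disomy was 2.78 with TMM factors computed without MIR166f and MIR166g and 2.78 without a limit on the level, both with an FDR below 0.05 by edgeR, and 2.40 to 3.25 without single plants.

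Counts of called loci moved as follows. The monosomy had 1 without a limit on the level, 0 to 1 without single plants (1 without 4Sa55) and 6 against all diploid controls of the experiment, where the trisomy had 5. The disomy had 3 with all mapped reads as library size, 3 with DESeq2 and 1 to 10 without single plants. The 3D against 1D contrast had 2 with TMM factors without MIR166f and MIR166g, 3 without a limit, 0 with the bias-adjusted fit and 0 to 4 without single plants. The added copy in diploids against haploids had 1 with a limit of 1 RPM. The 4S against 9S monosomy had 1 with all mapped reads, 4 with a limit of 1 RPM and 2 to 8 without single plants, and the disomy 3 to 11. No paired analysis was possible because the plants carry no shared replicate numbers. There were 3 or 4 plants a group and under 10 reads a plant at the cis loci. At this depth changes in proportion to 1 copy of 4S were not detectable for MIR169o or Cluster_146002. This holds also in haploids, where the h1D plants had 2 reads of Cluster_146002. The causes of the changes above were not tested.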
